A study of Mus musculus with 2 samples.

Results

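The Sox1 locus is the 1 Mb of mouse chromosome 8 from 11.8 to 12.8 Mb in build mm9 that the arrays tiled around Sox1, and it was defined by these coordinates alone. It held 11199 of the 170542 probes on the array, each 60 bases long at a median spacing of 60 bp, and 915 of the 14947 windows of 1 kb that contained at least 3 probes. It was 1 of 11 tiled segments, which together covered 17.4 Mb. The material was Rad21 chromatin immunoprecipitation (ChIP) from RAG cells, an adherent mouse line from a renal adenocarcinoma of the BALB/c strain that the study uses as its Pax6-OFF line, hybridised together with input DNA on Agilent 2-colour arrays. There were 2 biological replicates, each from 1 flask of cells and each on 1 array, and no other group, so that every comparison below is between positions of the genome and none is between conditions.

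Rad21 is the kleisin subunit of cohesin, the ring-shaped complex that holds sister chromatids together and extrudes chromatin loops in interphase. In mammals most strong cohesin sites coincide with CTCF, a zinc finger protein that halts extruding cohesin when its motif faces the complex, so that the strand of the motif matters for which loops can form. Sox1 encodes a SoxB1 transcription factor of neural progenitors and the lens. In the study, positions bound by CTCF and Rad21 served as loop anchors of a polymer model with 1 bead per kb, and the question addressed here is where such Rad21 positions lay around Sox1.

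All ratios are log2 of Cy3 over Cy5, centred on the median of each array. The labels put input in Cy3 and ChIP DNA in Cy5, so this ratio runs opposite to the labelled dyes. The paper's methods give the same dyes for its NimbleGen arrays and name none for the Agilent arrays. The deposited value table also ran as Cy3 over Cy5, and which channel held the ChIP DNA was not settled. Positions are therefore described only as higher in Cy3 or higher in Cy5.

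Stretches of neighbouring probes higher in Cy3 on the joint profile of both arrays formed 11 regions in the Sox1 locus, numbered S1 to S11 from left to right, out of 209 on the whole array. A region was a run of at least 3 probe positions whose running median over 400 bp on either side exceeded 0.63. Of the 11, 8 also formed a region on each array taken alone (series, 156 of 209). Such overlap is partly built in, since the joint profile pools the same arrays. In 7 of the 11 a match to the CTCF core motif, a consensus of 12 letters searched on both strands with at most 1 mismatch, lay within 500 bp of the summit. These matches are printed because the study's model also took an orientation from the strand of a motif. The study searched a wider stretch around CTCF peaks and had its own rule for sites with both strands. No CTCF data entered the search here, so its strands need not be those of the study. Each line gives the 40 bases of the genome build NCBIM37 (mm9) around the best match of 1 region, written in the direction of the motif, with the matched letters in capitals.
S1, chr8:11924358-11924397, reverse strand: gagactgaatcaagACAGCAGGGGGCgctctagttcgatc
S2, chr8:11943234-11943273, reverse strand: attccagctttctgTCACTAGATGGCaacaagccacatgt
S3, chr8:11957173-11957212, forward strand: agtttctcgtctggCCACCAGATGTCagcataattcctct
S5, chr8:12192193-12192232, reverse strand: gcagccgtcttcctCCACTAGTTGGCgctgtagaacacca
S6, chr8:12417107-12417146, forward strand: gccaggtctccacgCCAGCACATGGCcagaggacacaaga
S9, chr8:12607425-12607464, forward strand: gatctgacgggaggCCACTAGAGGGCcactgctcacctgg
S10, chr8:12677735-12677774, reverse strand: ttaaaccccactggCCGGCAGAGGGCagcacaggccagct

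The match in S9 was the only one without a mismatch, and the other 6 carried 1. S1, S2 and S9 held a match on each strand, whereas S3 and S6 held a forward match alone and S5 and S10 a reverse match alone. In S1 and S2 the matches on both strands carried 1 mismatch. The match nearer the summit is printed for them, so the printed strand gives these regions no single direction. The distance from the best match to the summit ran from 51 bp in S2 to 361 bp in S3. The share of 63.6% (7 of 11) stood beside 64.1% (127 of 198) in the regions of the other segments. The same search over all stretches of 1001 bp found the motif in 7.74% of the tiled sequence and in 9.32% of the Sox1 locus. A match is a description of the letters and not a bound site, and within 500 bp of their summits S4, S7, S8 and S11 came no closer than 2 mismatches. A search over the whole of each called region was added after seeing the data. There S8 held a match with 1 mismatch on the reverse strand 704 bp from its summit, which brought the count to 8 of 11. S4, S7 and S11 again came no closer than 2. The called regions differ in length and this search has no background share, so its count is not comparable with the 7 of 11.

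**Figure D1:**
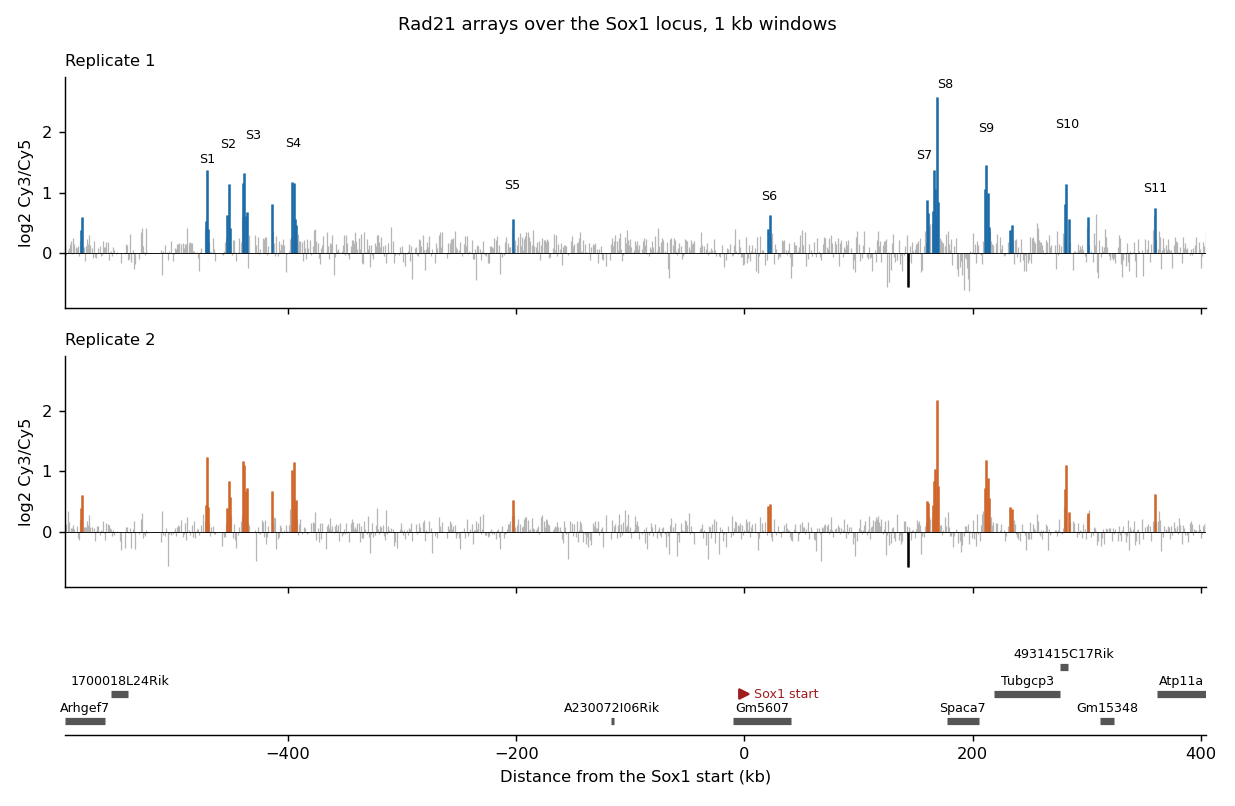
Mean log2 Cy3/Cy5 of each 1 kb window of the Sox1 locus on replicate 1 (top) and replicate 2 (middle) against the distance from the Sox1 start in kb, with annotated genes below. Coloured lines are the 39 windows higher in Cy3 past the threshold, the black line is the 1 window higher in Cy5, and grey lines are the other windows. Labels mark the regions, with S1 to S4 upstream, S7 to S11 downstream, and S5 and S6 between them.

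The tallest feature of the locus was S8, at chr8:12563693-12565698, in intergenic sequence 169 kb downstream of the Sox1 start and 8.32 kb from the start of Spaca7, which encodes a protein of the sperm acrosome. Its running median reached 2.53, the third highest among the 209 regions of the array. The mean over its 23 probes was 1.84 on replicate 1 and 1.56 on replicate 2, or 1.70 ± 0.19 (SD, n = 2). Every probe of S8 was above 0 on both arrays, from 0.27 to 3.59 on replicate 1 and from 0.18 to 2.75 on replicate 2. The same held for every other region except S3 on replicate 1, where 96.2% of probes were above 0. Its median Cy3 intensity was 7874 on replicate 1 and 5450 on replicate 2, against 1767 and 1808 over the locus, while its median Cy5 intensity was 1991 and 1724 against 1509 and 1620. S8 thus stood apart in the Cy3 channel far more than in the Cy5 channel. Both this and the probes above 0 are largely built in, since S8 was called and ranked on the ratio of these signals. 1 spot of S8 was saturated, on replicate 1. The 200 bases around the S8 summit are shown because the strongest region of the locus had no CTCF core match within 500 bp of its summit. Capitals mark only matches with at most 1 mismatch, so none are used here. A forward-strand stretch near the summit has 2 mismatches.
S8 summit, chr8:12564629-12564828, forward strand: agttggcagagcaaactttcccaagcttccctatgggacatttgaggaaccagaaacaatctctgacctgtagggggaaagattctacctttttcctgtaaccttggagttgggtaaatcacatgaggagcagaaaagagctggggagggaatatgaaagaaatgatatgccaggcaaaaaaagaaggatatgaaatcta

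S8 was placed in a group of 5 regions, S7 to S11, whose summits spanned 194 kb downstream of Sox1. The groups were set by hand from the distance to Sox1 and were not tested, and S11 lay 77.4 kb beyond S10. S7, at chr8:12560390-12562852, had its summit 3.06 kb before that of S8 and a mean of 1.08 on replicate 1 and 0.80 on replicate 2. This was the widest gap between the arrays among the 11 regions, with an SD of 0.20. S9, at chr8:12606298-12609206, lay in the intergenic sequence between Spaca7 and Tubgcp3, which encodes a component of the gamma-tubulin ring complex. It had means of 1.13 and 0.91 on replicates 1 and 2, and it was the region with the motif match free of mismatches. S10, at chr8:12676544-12678015, lay 5.74 kb from the Tubgcp3 start with its summit in an exon of the long intergenic RNA 4931415C17Rik. Its means of 1.07 and 1.02 differed little between arrays, and its summit, like those of S3 and S8, sat at the edge of an untiled stretch. S11, at chr8:12755340-12755519, was the shortest region with 3 positions and lay 1.58 kb upstream of the start of Atp11a, which encodes a phospholipid-transporting ATPase. S11 measured 0.95 and 0.80 but formed no region on either array alone. On replicate 1 its running median of 0.86 fell short of that array's threshold of 0.92. On replicate 2 its running median of 0.70 passed that array's threshold of 0.66, but at too few positions.

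The second group lay on the other side of Sox1 and held 4 regions, S1 to S4, with summits within 75.7 kb of one another and the nearest of them 395 kb upstream of the Sox1 start. All 4 were intergenic and all 4 were found on each array alone. S4, at chr8:11999411-12001095, had the highest mean of the group with 1.32 on replicate 1 and 1.23 on replicate 2. Single probes of S4 reached 3.37 and 3.26, although S4 held no CTCF core match with at most 1 mismatch anywhere in its called length. S3, at chr8:11956075-11959564, was the longest region with 3490 bp, against a median of 1472 bp in the locus and 1140 bp over the array. Its means of 0.94 and 0.92 were almost identical on the replicates. S1, at chr8:11923872-11924494, measured 1.19 and 1.04, and S2, at chr8:11942723-11943802, measured 1.17 and 0.89. The nearest coding gene start to this group was that of 1700018L24Rik (Tex29 in RefSeq), between 84.0 kb and 160 kb away.

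**Figure D2:**
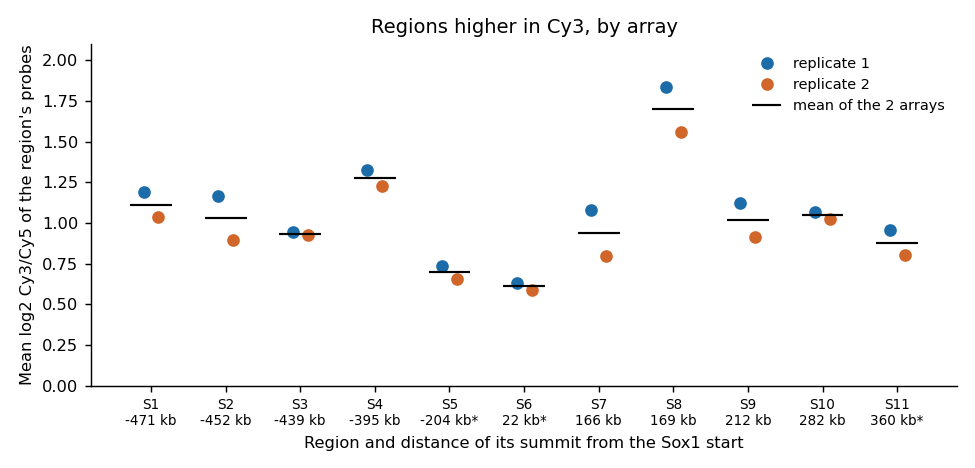
Mean log2 Cy3/Cy5 over the probes of each of the 11 regions on replicate 1 and replicate 2, with the mean of the 2 arrays as a bar and the distance of the summit from the Sox1 start under each name. S8 is highest on both arrays, and the 3 regions with an asterisk (S5, S6 and S11) were not found on each array alone.

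Between the groups the regions were few and low. S4 and S7 were the nearest regions on either side of Sox1 that were found on each array alone. Their summits lay 561 kb apart, with 522 measured windows between these regions. By this definition the stretch holds no such region, and nothing is read from that. S5, at chr8:12191832-12192431, lay 204 kb upstream of Sox1 and measured 0.74 and 0.66. It formed a region on replicate 2 alone, while on replicate 1 its running median of 0.91 fell short of that array's threshold of 0.92. S6, at chr8:12417075-12417374, was the region closest to Sox1, with its summit 21.8 kb downstream of the start in an intron of Gm5607. It was also the lowest, with 0.63 and 0.59 over 5 probes, and it formed no region on either array alone. Its running median of 0.73 on replicate 1 fell short of the same threshold of 0.92. On replicate 2 its running median of 0.69 passed that array's threshold of 0.66, but at too few positions. The threshold on the joint profile was passed with little room by S6 at a running median of 0.71, S11 at 0.78 and S5 at 0.79. The highest value short of the threshold was 0.63, 451 kb upstream of Sox1 and next to S2. At 414 kb upstream of Sox1 a running median of 0.71 exceeded the threshold at 1 position only and so made no region.

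**Figure D3:**
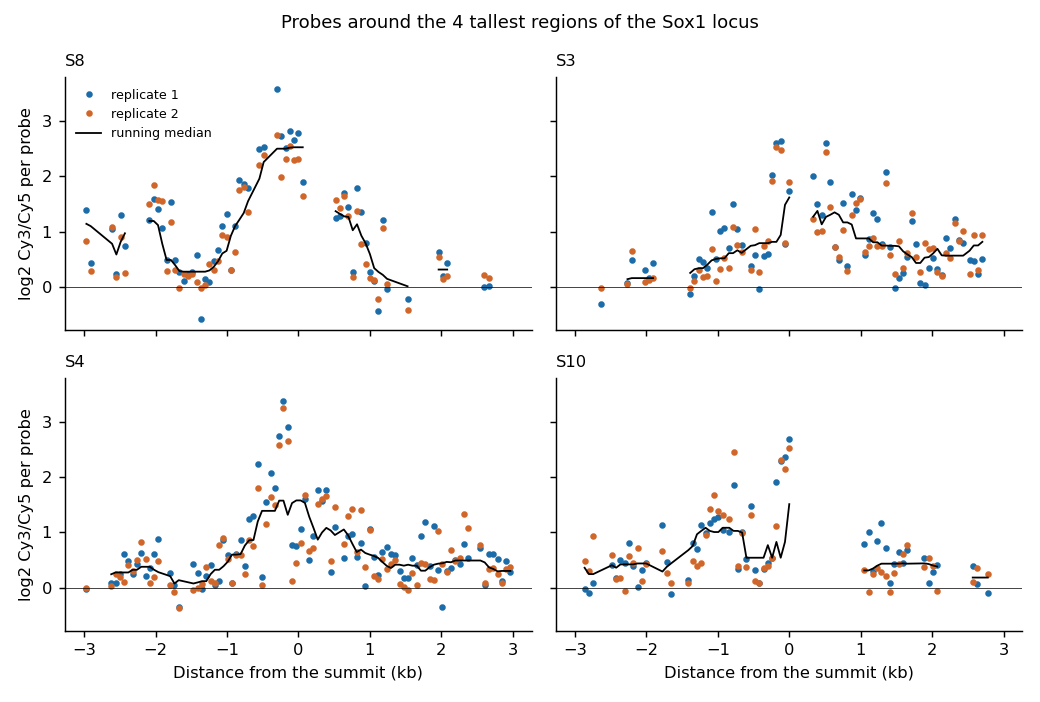
Log2 Cy3/Cy5 of every probe within 3 kb of the summits of S8, S3, S4 and S10, the regions with the highest running medians, on replicates 1 and 2, with the joint running median as a line that breaks where probes are missing. S8 rises to its summit on both arrays with S7 at the left edge of the plot, and the summits of S8, S3 and S10 are each followed by a gap in the tiling.

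At the level of 1 kb windows, 39 of the 915 windows of the locus (4.26%) were higher in Cy3 by limma with a Benjamini-Hochberg adjusted p under 0.05 over all windows, against 3.69% of all windows on the array. On the other side 1 window (0.109%) was higher in Cy5, against 5.41% on the array. At an unadjusted p under 0.05 the counts were 97 and 22. The Cy3 share of the locus was thus close to that of the array. The Cy5 share was far below it, but the size of that gap rested on the fit, since the windows of the other segments gave 5.75% here, 14.9% with 2 kb windows, 13.2% with centring on the mode (locus 1.09%), 9.55% without background correction, 1.42% after loess, 1.22% after removal of the trend with GC content and 0 with a trended robust prior. The segments nearest the locus in GC content, on chromosomes 11 and 1, both gave 1.37%. The 39 windows had a median of 0.65 and ran from 0.39 to 2.38, and 10 of them exceeded 1. A region was touched by 26 of them, 14 of the 39 lay in the upstream group and 17 in the downstream group. The window at the S8 summit was the highest, with 2.58 on replicate 1 and 2.18 on replicate 2 (adjusted p = 0.000169, limma). The highest windows of the other 10 regions all passed the same threshold, from 0.55 in S6 (adjusted p = 0.0203, limma) to 1.33 in S9 (adjusted p = 0.000529, limma). These windows, with that of S8, were picked as the highest within regions called from the same probes. Passing was therefore largely built in and is no separate support for the regions.

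The other 13 windows lay outside the regions and measured 0.39 to 0.75. The highest pair of neighbours among them, at chr8:12555001-12557000, came 160 kb downstream of Sox1, shortly before S7. Its first window had 0.89 on replicate 1 and 0.52 on replicate 2, and its second 0.67 and 0.48. Another pair, at chr8:11814001-11816000 in Arhgef7, measured 0.38 and 0.40 in the first window and 0.60 and 0.62 in the second. A further pair lay in introns of Tubgcp3, where the means were 0.40 and 0.43. By position, 31 of 676 intergenic windows and 8 of 239 windows in genes were higher in Cy3. Both shares were near the 4.26% of all windows of the locus and the 3.69% on the array, and nothing is read from them.

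The window higher in Cy5 was chr8:12538001-12539000, in intergenic sequence 143 kb downstream of Sox1. It measured -0.56 on replicate 1 and -0.57 on replicate 2 (adjusted p = 0.0155, limma), and it rested on 3 probes, the lowest number allowed. The mirror-image search for regions higher in Cy5 found 5 on the array and 0 in the Sox1 locus, where the lowest running median was -0.64 and the threshold was -1.11. Its null was mirrored from the Cy3 side of the profile, which holds the 209 regions. Its threshold therefore lay further from 0 than the 0.63 of the search on the Cy3 side. The counts of the 2 searches are not comparable, and nothing is read from the 0.

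The start of Sox1 itself did not pass the test in either direction. The GENCODE annotation of this build names no Sox1, so its start was placed at position 12395519 on the forward strand by an exact match of the 300 bases of its RefSeq promoter. There it lies within Gm5607, which RefSeq calls the long noncoding RNA Sox1ot and GENCODE M1 calls protein coding. The window with the Sox1 start measured -0.17 on replicate 1 and 0.03 on replicate 2, or -0.07 ± 0.15 (SD, n = 2; adjusted p = 0.707, limma). The arrays thus lay on opposite sides of 0, and the mean of the window was smaller than the spread between them. The next window downstream was the highest within 5 kb of the start, with 0.27 and 0.22 (adjusted p = 0.157, limma). Of the bases within 500 bp of the start, 68.4% were G or C. The windows of the Gm5607 body had a mean of 0.05 on replicate 1 and 0.06 on replicate 2 over 48 windows, and 2 of these were higher in Cy3, both beside or in S6.

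Of the 8 protein-coding genes that overlap the locus, counting Gm5607 and Sox1, 7 had their start on the tiling and 0 of these start windows passed the threshold with limma, where 3.69% of all windows passed as higher in Cy3 and 5.41% as higher in Cy5. With so few windows a count of 0 is near these shares, and nothing is read from it. The Arhgef7 start lay outside. Spaca7 came closest, with 0.36 on replicate 1 and 0.33 on replicate 2 (adjusted p = 0.0687, limma), and it passed under 2 other background corrections. The window at the start of Atp11a had 0.08 and 0.19 (adjusted p = 0.436, limma) although S11 lay 1.58 kb away. The start of Tubgcp3 measured 0.12 and -0.02, and that of Gm5607 -0.03 and -0.04. The start of 1700018L24Rik measured 0.04 and 0.05, and that of A230072I06Rik 0.16 and -0.10. The sign of values this close to 0 changed with the scaling, as given with the processing alternatives.

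Starts of developmental genes tiled elsewhere on the array were measured in the same way. Including Sox1, 12 such genes had a start window, and 0 passed the threshold with limma, a count that is near the 3.69% and 5.41% of all windows and from which nothing is read. Sox1 was lowest of the 12 with -0.07, and Rax, a homeobox gene of the early eye field, was highest with 0.16 on replicate 1 and 0.15 on replicate 2. Sox2, the SoxB1 relative of Sox1, measured 0.12 and 0.09 although the nearest region lay 1.92 kb from its start. The kidney gene Wt1, at -0.18 and 0.04, and the eye gene Six3, at -0.14 and 0.02, lay next to Sox1 in this order, and the spread between arrays exceeded the differences among these 3. The other 7 genes lay between Six3 and Rax, among them Pax6, the eye regulator the study centres on, with 0.01 and 0.02.

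**Figure D4:**
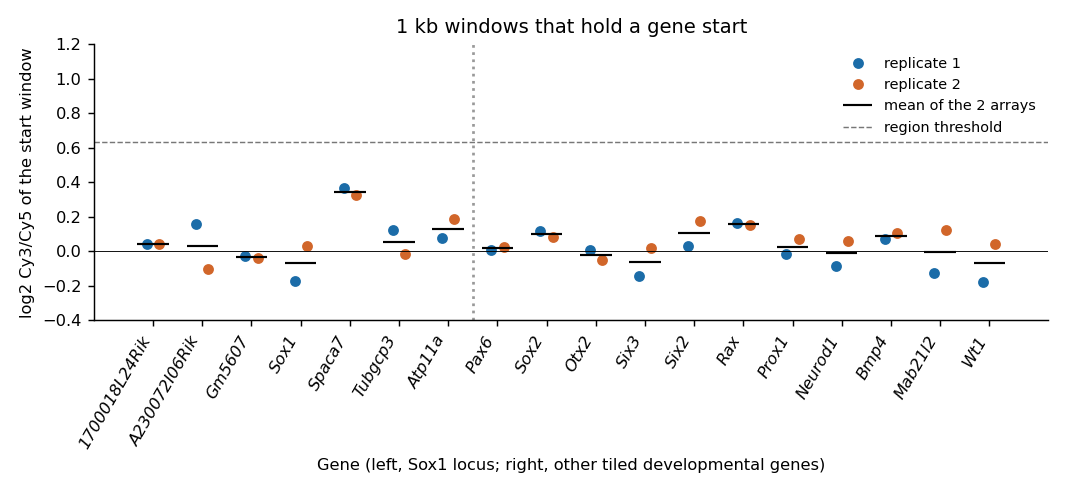
Log2 Cy3/Cy5 of the 1 kb window that holds each gene start, for the 7 tiled starts of the Sox1 locus (left of the dotted line) and the other 11 developmental genes (right), on replicates 1 and 2 with their mean as a bar. All values lie below the region threshold of 0.63, and the Sox1 start lies on either side of 0 on the 2 arrays.

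Over all its windows the locus lay above the pooled windows of the other segments by a small amount. The mean over its windows was 0.11 on replicate 1 and 0.06 on replicate 2, against -0.08 and -0.05 over the windows of the other segments. It was not the highest segment, since the segment on chromosome 11 had means of 0.15 and 0.14 at a GC content of 47.0%, and the segment on chromosome 18 also lay above 0 on both arrays, with 0.06 and 0.05. A window was above 0 on both arrays in 53.7% of the locus and in 23.8% of the other segments. Without the windows that touch a region, the locus mean was still 0.06 over 888 windows. The locus also had the highest GC content of the 11 segments, with 48.3% against 42.0% over the others, and the GC content of a window followed its ratio with a Spearman correlation of 0.43 over the 915 windows of the locus and 0.60 over the others, points that share libraries and base composition. The part of GC content in the shift was not tested. After removal of the trend with GC content the locus mean was 0.05 and that of the other segments -0.004. Along the locus the mean of 100 kb stretches ran from 0.05 in the last to 0.18 in the second, which held S1 to S3.

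**Figure D5:**
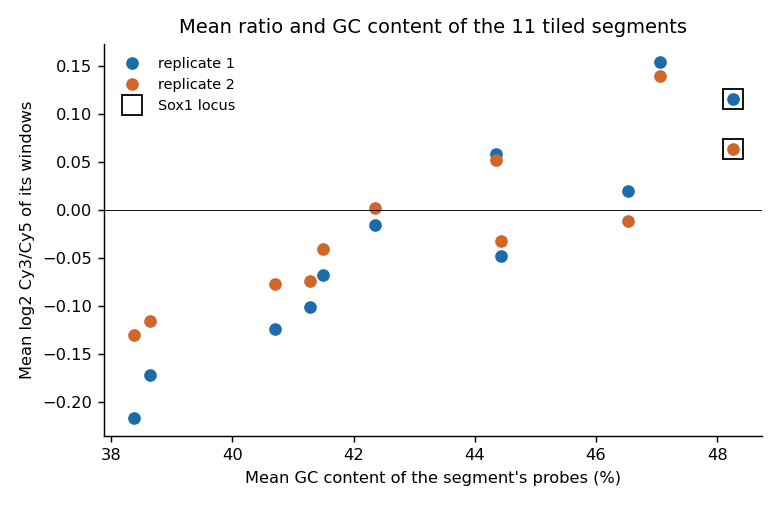
Mean log2 Cy3/Cy5 over the 1 kb windows of each of the 11 tiled segments on replicates 1 and 2 against the mean GC content of its probes in percent, with squares around the Sox1 locus. The locus has the highest GC content (48.3%) and lies above 0 on both arrays.

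The replicates could be compared with the precision of the printing itself, since all 4486 probes printed more than once lay in the left part of the locus, which includes S1 to S5. The root mean square SD between copies was 0.060 on replicate 1 and 0.059 on replicate 2. Between the arrays the SD of the same probes was 0.25, so the spread between replicates was far larger than the spread between spots. Over windows the arrays correlated with a Pearson correlation of 0.72 and a Spearman correlation of 0.47 across 915 windows of 2 arrays, and the Pearson correlation was 0.47 over the 888 windows outside regions. The median intensity of the locus spots was 78.2 times background in Cy3 and 31.4 times in Cy5 on replicate 1, and 104 and 40.1 times on replicate 2, and at least 98.1% of its spots were well above background in both channels.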

How the data were processed

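Rad21 ChIP and input DNA of 2 flasks of RAG cells were amplified, labelled and hybridised by the authors to custom Agilent tiling arrays of 175053 non-control spots. The deposited scanner files hold intensities written by Feature Extraction 10.5.1.1, background-subtracted and dye-normalized, per the file headers, with a log10 ratio, and marks (other) for background and saturation. The deposited table holds log2 values processed by the authors with Ringo, with parameters not given in the sources used here. Its rows were tied to probes by their order, which the ratios bore out (r of 0.92 and 0.93 with the running medians in the locus), its scale is smoothed, and its direction is Cy3 over Cy5. It was used only as an alternative.

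For each spot, log2 of the Cy3 over the Cy5 processed signal was taken, centred on each array's median over non-control spots, and averaged over copies of a probe. Windows of 1000 bp with at least 3 probes were tested against 0 with limma 3.58.1 in R 4.3.3 over all 14947 windows, with Benjamini-Hochberg adjustment at 0.05. With 2 arrays a window has 1 residual degree of freedom, so its spread is borrowed mostly from other windows and the number of arrays limits the precision. Regions were runs of at least 3 positions, joined within 600 bp, with a running median (400 bp on either side, at least 5 values) over the 0.99 quantile of a null mirrored about the mode, a quantile that lets some positions through by chance. The CTCF core motif was searched within 500 bp of each summit.

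Coordinates are mm9 (NCBIM37, GENCODE M1), and RefSeq names come from a table of GRCm38.p6. On simulated data the window and region steps recovered nearly all planted shifts, but in some draws the window test called more unshifted windows than its threshold implies, and the region step also called runs of noise. All protein-coding genes of the locus, all regions, windows past the threshold on the Cy5 side (at most the 3 lowest) and 12 developmental gene starts were named. The locus and these lists were chosen with earlier results of these data known. The alternatives were other background corrections and scalings, a GC correction, stricter probe filters, the deposited values, other window and region settings, and leaving out each array.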

Additional observations from a re-analysis of the deposited data

How the results depend on the processing

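No paired analysis was possible because the labels give only 1 group. The locus had 39 windows higher in Cy3, which became 14 with the deposited values, where only 542 windows of the locus could be measured, and 66 with 500 bp windows, of which there were more. The other alternatives gave 32 to 49. The 1 window higher in Cy5 became 6 with normexp, 2 without background correction, 10 with centring on the mode, 2 after removal of the GC trend, 0 with the deposited values, 5 with 500 bp windows and 0 with a trended robust prior. The 11 regions became 20 after removal of the GC trend and 20 at the 0.95 quantile, and leaving out a replicate gave 8 to 9. With the deposited values there were 7, but S1 to S5 held no probe with a deposited value and could not be called. The 7 regions with the motif became 1 with no mismatch. Searching whole regions, an alternative chosen after seeing the data, gave 8, the added one being S8. Apart from what the numbers of windows explain, the causes were not tested. Gene starts past the threshold stayed at 0 under the 3 alternatives run for their counts, and the Sox1 start stayed below 0 except that leaving out a replicate gave -0.17 to 0.033.

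The following were added after seeing the data. The mean of each region moved beyond its SD in 21 of 105 values and kept its sign in all of them, with S8 between 1.56 and 1.84 and S6 between 0.53 and 0.63. The locus mean fell to 0.01 with centring on the mode. Spaca7's start passed the threshold with normexp (0.32, adjusted p = 0.0400) and without background correction (0.34, adjusted p = 0.0420), both by limma. Signs turned for start windows near 0. With loess 1700018L24Rik gave -0.0068, Neurod1 0.013, Otx2 0.013, Pax6 -0.042 and Prox1 -0.0015. With centring on the mode 1700018L24Rik gave -0.034, A230072I06Rik -0.049, Pax6 -0.061, Prox1 -0.050 and Tubgcp3 -0.025. After removal of the GC trend 1700018L24Rik gave -0.034, A230072I06Rik -0.039, Pax6 -0.091, Prox1 -0.040 and Tubgcp3 -0.046. With the deposited values Mab21l2 gave 0.033, Neurod1 0.016, Otx2 0.012 and Pax6 -0.0062. With normexp Neurod1 gave 0.020 and Pax6 -0.015, without background correction Mab21l2 gave 0.016, and with probes well above background Pax6 gave -0.0012. Leaving out each replicate gave -0.10 to 0.16 for A230072I06Rik, -0.13 to 0.12 for Mab21l2, -0.082 to 0.059 for Neurod1, -0.049 to 0.010 for Otx2, -0.017 to 0.072 for Prox1, -0.14 to 0.020 for Six3, -0.017 to 0.12 for Tubgcp3 and -0.18 to 0.042 for Wt1. Window counts without a replicate have no test, since 1 array leaves no residual degrees of freedom.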
